A study of Mus musculus with 48 samples.

Results

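The subunit genes of oxidative phosphorylation were described over mouse brain mRNA arrays. Members were the genes on the array whose symbol, reached through the RefSeq transcript of each probe, belongs to the Nduf, Sdh, Uqcr, Cox4 to Cox8 or Atp5 series, without pseudogenes. The rule picked genes by name, and a measured value entered only in the choice of 1 feature per gene. It gave 83 genes of 19752 genes with a symbol on the array, assigned to 112 of 55681 features. By complex, 35 genes belonged to complex I, 4 to complex II, 8 to complex III, 20 to complex IV and 16 to complex V. Most had 1 feature (61 genes), and for the 22 genes with several features the brightest was used. Another 18 pseudogenes were left out, and 4 genes of the rule (Atp5g1, Ndufb1, Ndufb4b and Ndufb4c) had no assigned feature.

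Total RNA of male mice was labelled with Cy3 and hybridised to 24 single-colour whole-genome mouse arrays, in 8 groups of 3 arrays. The mice were wild-type (WT) C57BL/6J or Tg2576 animals, whose strain is labelled Tg(APPSWE)2576Kha, at 10 or 17 months of age, and the RNA came from brain cortex or from whole brain. The 8 groups were thus WT cortex 10 months, Tg2576 cortex 10 months, WT cortex 17 months, Tg2576 cortex 17 months, and the same 4 combinations for whole brain. No group received a further treatment in the labels. In Tg2576 mice a hamster prion protein promoter drives the human amyloid precursor protein with the Swedish mutation, so the model rests on a mutant protein that is overexpressed from a foreign promoter. Replicates carry only a number, and nothing says that they came from separate animals. The p-values therefore measure the spread between these samples, which may be technical.

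Oxidative phosphorylation is the last step of aerobic energy production. Complex I takes electrons from NADH and complex II takes them from succinate, complex III passes them to cytochrome c, complex IV hands them to oxygen, and complex V uses the resulting proton gradient to make ATP. A few core subunits carry the redox centres or the catalytic sites, and many accessory subunits build and hold the complexes; except for complex II, each complex also holds subunits encoded by mitochondrial DNA, which are not members here. Neurons depend on this pathway for ion pumping and synaptic transmission, so its mRNA is abundant in brain. Most of the nuclear genes are expressed in every cell type, and a few have paralogs that are enriched in muscle, testis, lung or cells exposed to low oxygen.

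All values are log2 signals with the 75th percentile of the same array subtracted, called the level below, and a difference is one group's mean level minus another's. A probe's level depends on its sequence, so levels are compared between groups and not between genes. The 75th percentile of the arrays lay between 507 and 824 fluorescence units, and each array had 34151 to 41084 probes well above background. Of the 83 genes, 82 were well above background on all 24 arrays and none was saturated. Cox8c, the testis-enriched form of subunit 8, was well above background on 0 arrays. It was tested only in the alternative fits with no filter on dim probes. Markers of neurons, astrocytes, oligodendrocytes and microglia were all well above background on the 24 arrays, as brain tissue would give. In bulk tissue, fewer cells of a type and less RNA per cell cannot be told apart.

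The arrays lay on 3 slides. Both 10-month cortex groups were on slide 1 and both 17-month whole brain groups on slide 3. The other groups were split, WT cortex 17 months over slides 1 and 2 and Tg2576 whole brain 10 months over slides 2 and 3, or lay wholly on slide 2. For the age comparisons in Tg2576 cortex and WT whole brain, and the tissue comparisons in WT at 10 months and Tg2576 at 17 months, slide and group cannot be told apart.

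Promoter windows are shown for genes that were called below in different directions, so that the letters can be read beside the values: Uqcrc1 and Ndufa10, which were higher with age, and Ndufs4 and Atp5pb, which were lower. Each window runs 5′ to 3′ on the gene's strand, from 250 bases before to 50 bases after the RefSeq start (GRCm38.p6): Uqcrc1 at chr9:108936398-108936697 on the plus strand, Ndufs4 at chr13:114388045-114388344, Atp5pb at chr3:105959214-105959513 and Ndufa10 at chr1:92473709-92474008, these last on the minus strand. Capitals mark exact matches, on either strand, to an NRF1-like motif (GCGCATGCG), an ETS-like motif as bound by GABP (CCGGAAG) or a YY1-like motif (AAGATGGC), all of them motifs known from respiratory chain genes. Motifs on the reverse strand appear as their reverse complement, and GCGCATGCG overlaps its own reverse complement in GCGCATGCGC.
Uqcrc1: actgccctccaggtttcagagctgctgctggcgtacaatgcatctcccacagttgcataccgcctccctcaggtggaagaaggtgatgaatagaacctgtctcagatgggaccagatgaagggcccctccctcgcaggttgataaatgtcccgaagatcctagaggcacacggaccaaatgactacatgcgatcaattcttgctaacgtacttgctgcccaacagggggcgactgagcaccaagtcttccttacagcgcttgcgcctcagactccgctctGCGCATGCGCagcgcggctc
Ndufs4: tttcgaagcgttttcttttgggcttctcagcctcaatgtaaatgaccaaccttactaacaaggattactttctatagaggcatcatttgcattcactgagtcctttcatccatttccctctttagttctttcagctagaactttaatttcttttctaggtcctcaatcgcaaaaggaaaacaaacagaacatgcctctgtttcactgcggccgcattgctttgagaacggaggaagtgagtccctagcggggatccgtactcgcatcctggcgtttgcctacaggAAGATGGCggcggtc
Atp5pb: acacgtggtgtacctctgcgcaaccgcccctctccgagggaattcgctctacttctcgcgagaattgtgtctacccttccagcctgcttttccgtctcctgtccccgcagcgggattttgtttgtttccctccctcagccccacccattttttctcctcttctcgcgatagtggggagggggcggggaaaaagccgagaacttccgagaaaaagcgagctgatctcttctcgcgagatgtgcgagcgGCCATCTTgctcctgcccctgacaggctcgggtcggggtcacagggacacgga
Ndufa10: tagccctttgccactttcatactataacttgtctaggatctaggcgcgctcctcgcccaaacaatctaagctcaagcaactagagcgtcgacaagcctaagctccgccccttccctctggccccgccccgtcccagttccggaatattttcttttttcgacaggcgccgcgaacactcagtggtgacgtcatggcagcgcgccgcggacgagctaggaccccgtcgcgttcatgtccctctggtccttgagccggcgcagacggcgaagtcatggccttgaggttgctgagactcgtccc
The Uqcrc1 window held the NRF1-like motif on both strands as overlapping matches, the Ndufs4 window held the YY1-like motif after the start, the Atp5pb window held it on the reverse strand across the start, and the Ndufa10 window held none of the 3 motifs. Of the 83 members, 67 had a window in the RefSeq table. The NRF1-like motif was found for 8 of them (11.9%) and for 1.95% of all 27025 genes of the table. The ETS-like motif was found for 17 members (25.4%) and for 9.93% of all genes, and the YY1-like motif for 10 members (14.9%) and for 3.19%. At least 1 of the 3 was found for 30 members (44.8%) and for 14.1% of all genes. By complex the YY1-like motif was found for 7 of 31 complex I genes and 3 of 14 complex V genes. It was found for none of the 3, 5 and 14 genes of complexes II, III and IV with a window, which are few. Of its 10 matches 8 began at or after the start. These are descriptions of letters in a window and not of binding.

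As a set, the subunit genes varied less than all probes above background. Their probes were also bright, with a median percentile of 98.2 among all probes, and 75 of 83 lay above 90. The spread was not compared with that of probes of like brightness. The SD between replicate arrays, pooled over the groups, had a median of 0.073 over the 82 genes and 0.133 over all 32188 probes measured above background on each array. It was under 0.2 for 78 of 82 members and for 25206 of 32188 probes. The SD of the 8 group means had a median of 0.114 for the members and 0.161 for those probes. By complex this median was 0.119 for complex I, 0.097 for complex II, 0.107 for complex III, 0.122 for complex IV and 0.102 for complex V. The widest member was Ndufa4l2, a paralog of Ndufa4 known for its induction under low oxygen and its high level in the mural cells of vessels, with an SD of its group means of 0.827. Ndufa9, an accessory subunit near the quinone site of complex I, followed with 0.437, and Cox6b2, the testis-enriched form of subunit 6b, with 0.199. Uqcrfs1, the Rieske iron-sulfur protein of complex III, had the narrowest spread, 0.055.

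**Figure D1:**
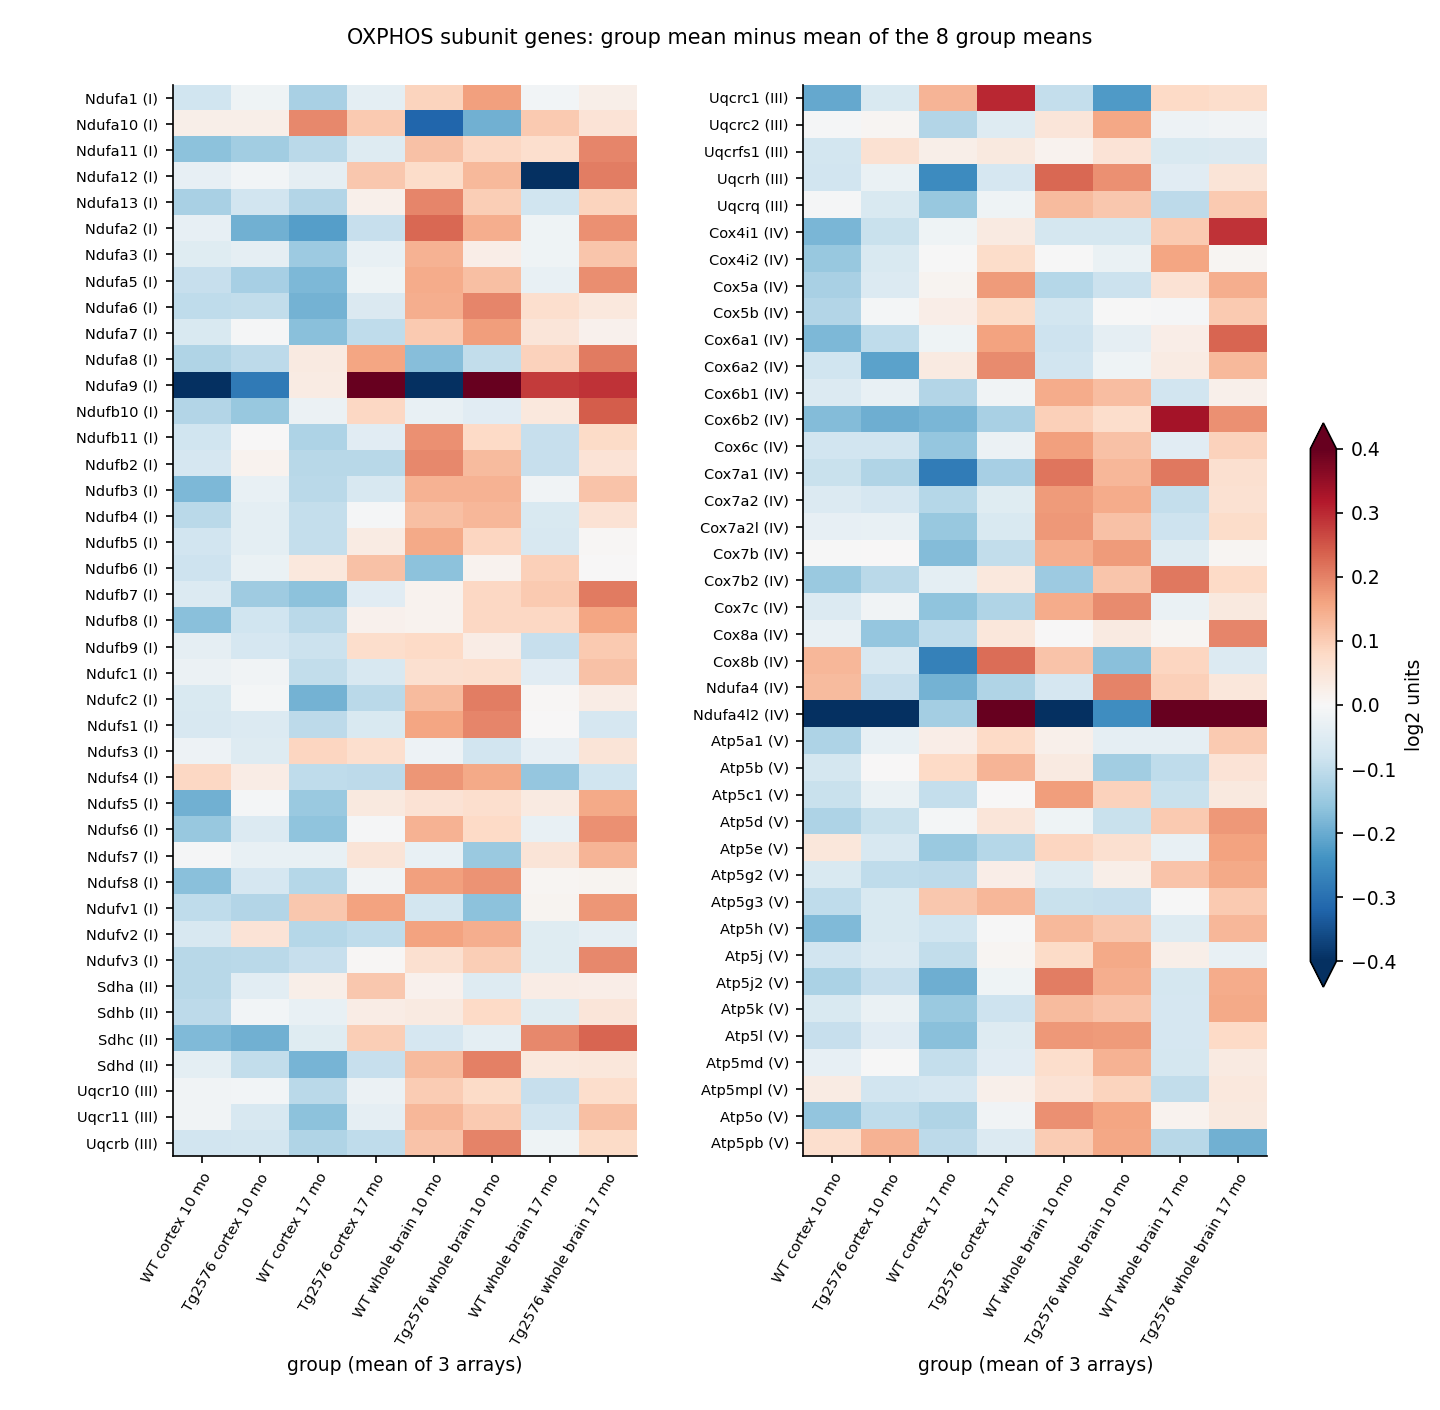
Levels of subunit genes in the 8 groups (columns, mean of 3 arrays each); colour gives the group mean minus the mean of the 8 group means of that gene, in log2 units, with colours clipped at 0.4 on either side, and the complex stands in parentheses. Whole brain at 10 months is red and cortex blue for most genes, Ndufa4l2 runs from blue at 10 months to red at 17 months except in WT cortex, and the dark cells of Ndufa9 and Ndufa12 come from single arrays.

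The median deviation of the members on an array, that is the median over the 82 genes of the level minus that gene's mean over the groups, stayed within 0.2 of 0 on all 24 arrays. In WT cortex at 10 months it was -0.10, -0.08 and -0.07 from lowest to highest, and in Tg2576 cortex at 10 months -0.09, -0.06 and 0.02. WT cortex at 17 months lay at -0.13, -0.09 and -0.08. Tg2576 cortex at 17 months lay at -0.02, -0.01 and 0.01, so its arrays were above those of WT cortex of the same age. Whole brain arrays at 10 months were higher than those of cortex at that age, with 0.02, 0.08 and 0.16 in WT and 0.05, 0.09 and 0.12 in Tg2576. At 17 months WT whole brain lay at -0.05, -0.02 and 0.02 and Tg2576 whole brain at 0.04, 0.05 and 0.18, with no overlap. These shifts moved with the scaling, as described for each comparison.

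**Figure D2:**
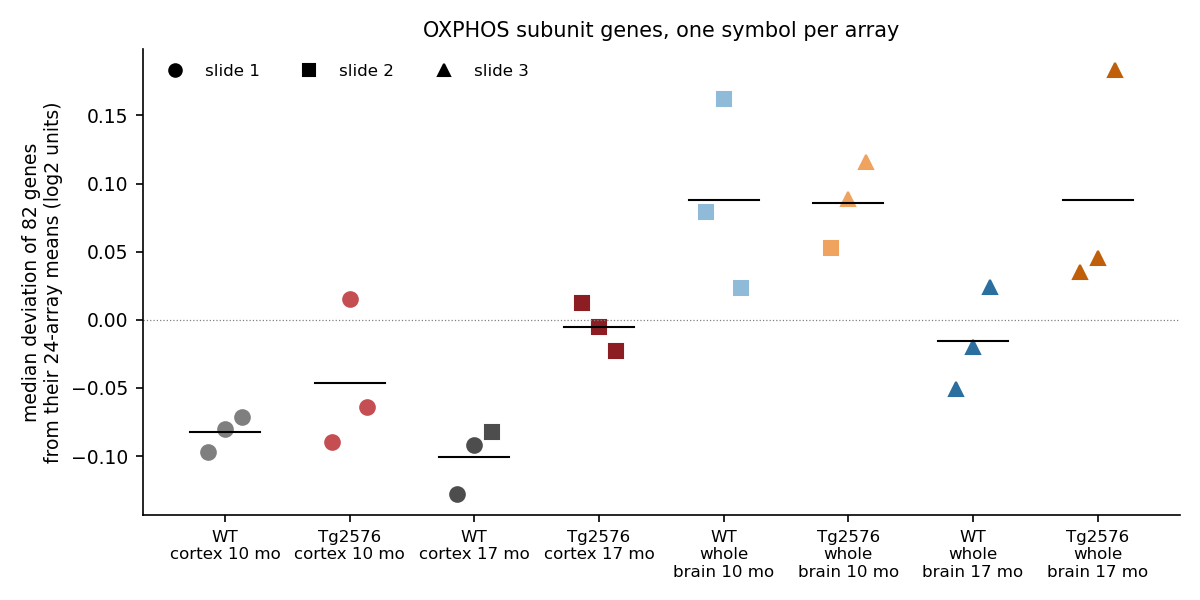
Median deviation of the 82 subunit genes on each of the 24 arrays (y axis, log2 units) by group (x axis); the symbol gives the slide. The 10-month whole brain arrays sit between 0.02 and 0.16, above the 10-month cortex arrays at -0.10 to 0.02.

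A few probes were low on single arrays. Ndufa9 lay between 3.80 and 4.12 on 20 arrays, but at 1.38 in WT cortex 10 months replicate 1, 1.78 in Tg2576 cortex 10 months replicate 2, 2.88 in WT cortex 17 months replicate 3 and 0.36 in WT whole brain 10 months replicate 1. The median of the 28 spots around it deviated by -0.01 to 0.05 on those 4 arrays, and the spot was not marked as nonuniform. Ndufa4l2 was also at its group's lowest on these 4 arrays. Ndufa12, another accessory subunit of complex I, was low on WT whole brain 17 months replicate 1 only (4.09), where the 27 spots around it were low as well, with a median of -0.57. Each of these genes has 1 probe, and no difference of Ndufa9 or Ndufa12 passed the test in any comparison.

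The first question was which subunit genes differed between 10 and 17 months of age. Over the 4 age comparisons (WT and Tg2576, cortex and whole brain, which share no arrays) a member counted as called where limma's p, after Benjamini-Hochberg adjustment across every probe tested, was under 0.05. The calls were 0 in WT cortex, 2 in Tg2576 cortex, 17 in WT whole brain and 4 in Tg2576 whole brain. Ndufa4l2 was called higher at 17 months in 3 of the 4 and Atp5pb lower in both whole brain comparisons, and the other called genes were called once. By sign alone, 17 members had a positive difference in all 4 comparisons and 19 in none of them. Of all probes, 46.1% to 49.0% were positive in a single comparison, and no share over all 4 is given here. The age groups did not overlap for 36, 30, 49 and 35 of 82 members, in the order of the calls above. A lack of overlap was thus frequent among the members.

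**Figure D3:**
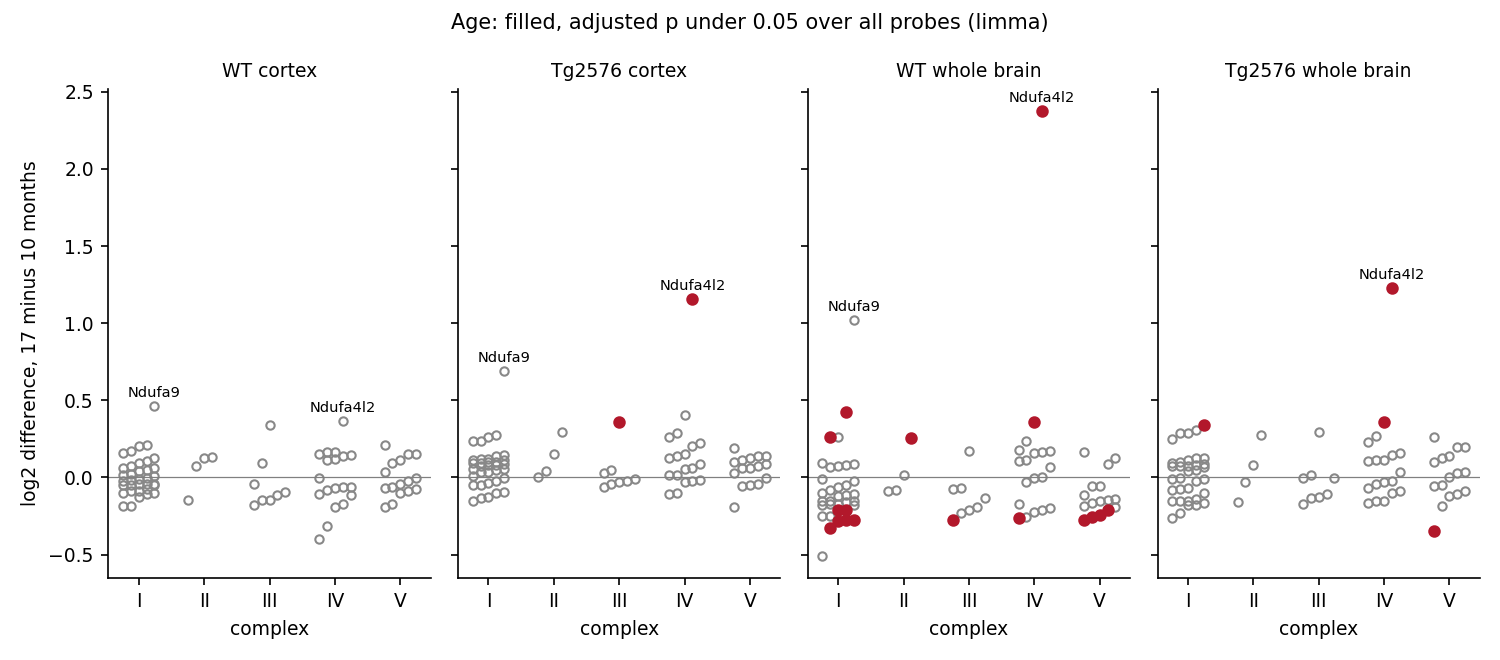
Difference in level between 17 and 10 months (y axis, log2 units) for each of the 82 subunit genes by complex (x axis) in the 4 age comparisons; filled points passed the adjusted threshold of 0.05 (limma). Ndufa4l2 stands above the other genes in 3 panels (1.16, 2.37 and 1.23), and nearly all other differences lie within 0.5 of 0.

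Ndufa4l2 showed the largest age differences among called genes. In WT cortex its level was -1.80, -1.78 and -1.72 at 10 months and -0.93, -0.87 and -2.41 at 17 months, so 2 of the 3 older arrays lay above all younger ones and replicate 3 lay below them. The difference was 0.36 ± 0.411 (SE; adjusted p = 0.62), and without WT cortex 17 months replicate 3 it was 0.87 ± 0.071 (adjusted p = 0.0506); that array is also the one on slide 2, and within slide 1 the value is the same. In Tg2576 cortex the levels were -1.71, -2.18 and -1.55 at 10 months and -0.76, -0.66 and -0.55 at 17 months, with no overlap. Ndufa4l2 thus rose by 1.16 ± 0.172, or 2.23-fold (adjusted p = 0.0223). With any 1 array left out the difference stayed between 0.97 and 1.29, and the call was kept only without Tg2576 cortex 10 months replicate 3 (adjusted p = 0.0405; 0.0565 to 0.0718 without any of the others).

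In WT whole brain Ndufa4l2 lay at -4.15, -1.61 and -1.83 at 10 months and at -0.23, -0.12 and -0.12 at 17 months. The older arrays were close together and all above the younger ones, of which replicate 1 was far below its group. The difference was 2.37 ± 0.66, or 5.18-fold (adjusted p = 0.0433), and without WT whole brain 10 months replicate 1 it was 1.56 ± 0.096, or 2.95-fold (adjusted p = 0.013). The call was also kept without replicate 2 of that group (adjusted p = 0.0433) and was lost without replicate 3 (0.06) or any 17-month array (0.0908 to 0.103). In Tg2576 whole brain the levels were -1.58, -1.38 and -1.59 at 10 months and -0.28, -0.38 and -0.21 at 17 months. The rise was 1.23 ± 0.095, or 2.34-fold (adjusted p = 0.00849). Within slide 3, which held 2 of the younger and all of the older arrays, it was 1.19 ± 0.107 (adjusted p = 0.0317), and of the 6 arrays only leaving out 10 months replicate 3 lost the call (adjusted p = 0.0521).

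Some markers of endothelium and mural cells, where Ndufa4l2 is known to be expressed, were also called by age. Of the 9 markers, all well above background on all arrays, 1 was called higher in WT cortex, 2 higher and 1 lower in Tg2576 cortex, 3 higher in WT whole brain, and 3 higher and 1 lower in Tg2576 whole brain. In the same order, 2.94%, 5.6%, 12.7% and 6.58% of all probes were called higher and 1.62%, 4.69%, 15.2% and 5.55% lower. Cldn5, a tight junction gene of endothelium, rose in all 4 comparisons (0.69, 0.565, 0.90 and 0.92), and Pdgfrb, the mural cell receptor, rose in both whole brain comparisons (0.60 and 0.56). Rgs5, a pericyte gene, fell in Tg2576 cortex (-0.55) and Tg2576 whole brain (-0.60). The summed level of the 9 markers, as signal relative to the array's 75th percentile, ranged from 18.2 to 19.1 in WT cortex at 10 months and 18.5 to 21.9 at 17 months, from 18.7 to 19.1 and 18.7 to 21.2 in Tg2576 cortex, from 17.2 to 18.6 and 22.01 to 23.7 in WT whole brain, and from 17.9 to 19.03 and 23.6 to 25.6 in Tg2576 whole brain. Their part in the Ndufa4l2 result was not tested.

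Uqcrc1, a core protein on the matrix side of complex III, was higher at 17 months in both tissues and genotypes. In Tg2576 cortex its level was 4.01, 3.94 and 3.93 at 10 months and 4.33, 4.28 and 4.36 at 17 months. The groups did not overlap, and Uqcrc1 rose by 0.36 ± 0.067, or 1.28-fold (adjusted p = 0.0315), a call that was lost without any 1 of the 6 arrays (adjusted p from 0.0671 to 0.0981). In WT cortex the levels were 3.89, 3.79 and 3.77 at 10 months and 4.14, 4.12 and 4.21 at 17 months, a difference of 0.34 ± 0.071 that missed the threshold (adjusted p = 0.0541). In whole brain the differences were 0.17 in WT (adjusted p = 0.1) and 0.30 in Tg2576 (adjusted p = 0.069), neither of them called. The age groups of Uqcrc1 did not overlap in any of the 4 comparisons.

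**Figure D4:**
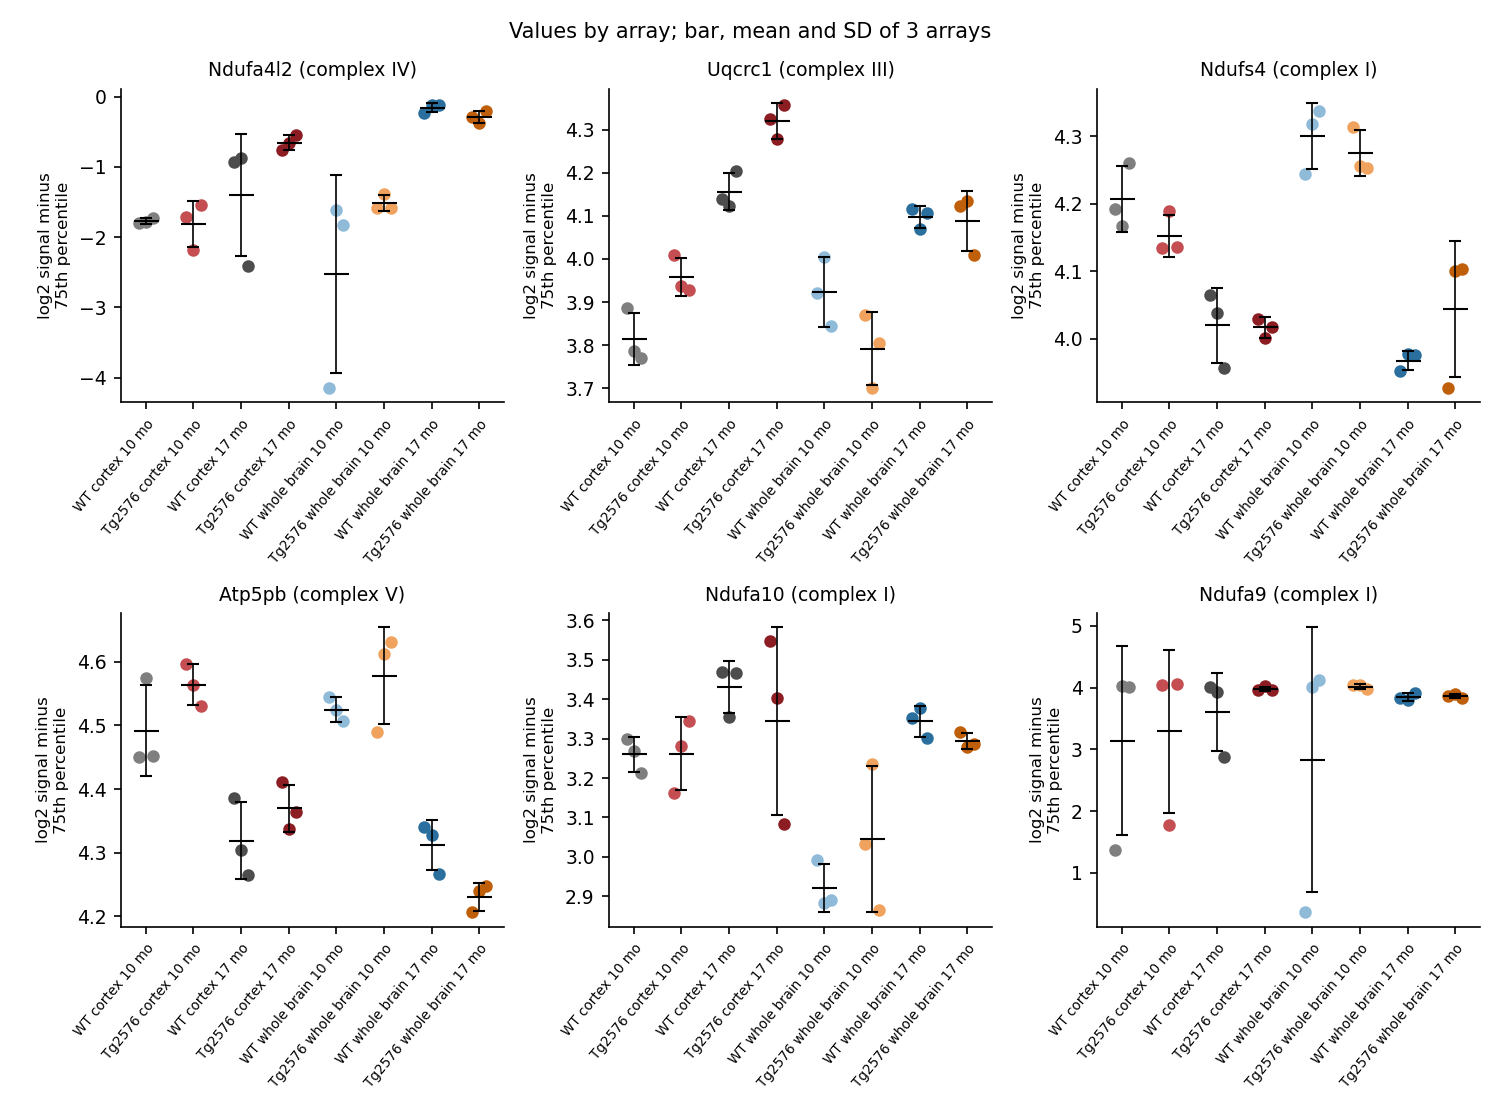
Levels by array (y axis, log2 signal minus the array's 75th percentile, a separate scale for each gene) of Ndufa4l2, Uqcrc1, Ndufs4, Atp5pb, Ndufa10 and Ndufa9 in the 8 groups (x axis); the bar gives the mean and SD of 3 arrays. Ndufa4l2 and Uqcrc1 lie higher and Ndufs4 and Atp5pb lower at 17 months, and 4 arrays of Ndufa9 lie between 0.36 and 2.88.

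In WT cortex no member was called, while 4.56% of the 39511 probes tested were. At an unadjusted p under 0.05, 4 members were higher and 5 lower, where 25.9% of all probes passed, and the methods' t-test, a plain unpaired t-test on each probe with the same adjustment, called Ndufa8 and Uqcrc1. Among the genes that passed the unadjusted threshold, the largest positive differences besides Uqcrc1 were those of Ndufv1, the flavoprotein that binds NADH (0.21, adjusted p = 0.133), and Atp5g3, a gene of the c-ring (0.21, adjusted p = 0.132). The largest negative ones among them were those of Ndufa4, now counted with complex IV (-0.31 ± 0.073, adjusted p = 0.0643), Atp5e, the epsilon subunit (-0.19), and Ndufs4 (-0.19 ± 0.071, adjusted p = 0.168). The median difference of the members was -0.02, with 35 of 82 positive, and that of all probes also -0.02.

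In Tg2576 cortex the 2 called genes were Ndufa4l2 and Uqcrc1, both higher. That is 2 of 82 members higher and 0 lower, where 5.6% of all probes were called higher and 4.69% lower. Here too age and slide cannot be told apart. The median of the members was 0.06, with 57 of 82 positive, against -0.01 for all probes. By complex the medians were 0.08 for complex I, 0.096 for complex II, -0.02 for complex III, 0.08 for complex IV and 0.07 for complex V, each with a median SE of a single gene near 0.07 to 0.08. After quantile normalization in place of the 75th percentile the members' median was -0.03 with 31 positive, and the calls became Ndufa4l2 higher and Atp5pb lower.

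WT whole brain held most of the calls, and most of them were downward. Age and slide cannot be told apart in this comparison, as given above. There 5 members were called higher (12.7% of all probes were) and 12 lower (15.2% of all probes were). Neither count was more than the share of all probes. The calls were 2 higher and 6 lower in complex I, 1 higher in complex II, 1 lower in complex III, 2 higher and 1 lower in complex IV and 4 lower in complex V. Median differences were -0.12 in complex I, -0.03 in complex II, -0.16 in complex III, 0.07 in complex IV and -0.15 in complex V. Over all members the median was -0.11, with 26 positive and 56 negative, against -0.03 for all probes. With quantile normalization 6 were called higher and 25 lower, all 17 of the calls above among them, and the median was -0.135. With 1 array left out at a time 2 to 10 members were called, and only Ndufa10 and Ndufs4 were called each time.

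Among the called genes of WT whole brain the largest rise after Ndufa4l2 was that of Ndufa10, an accessory subunit of complex I on its matrix side. Its level was 2.99, 2.88 and 2.89 at 10 months and 3.35, 3.38 and 3.30 at 17 months, with no overlap. The rise was 0.42 ± 0.063, or 1.34-fold (adjusted p = 0.00816). Cox7b2, the testis-enriched paralog of Cox7b, rose by 0.36 ± 0.086 (adjusted p = 0.0292), from -3.10, -3.04 and -3.11 to -2.74, -2.86 and -2.58. Ndufb6, an accessory subunit of the membrane arm of complex I, rose by 0.26 ± 0.057 (adjusted p = 0.022), from 4.25, 4.24 and 4.21 to 4.52, 4.50 and 4.45. Sdhc, a membrane anchor of complex II, rose by 0.26 ± 0.067 (adjusted p = 0.0367), from 3.83, 3.80 and 3.68 to 3.99, 4.05 and 4.04. For these 4 genes every 17-month array lay above every 10-month array, and 49 of 82 members had no overlap in this comparison.

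The largest called fall in WT whole brain was that of Ndufs4, an accessory subunit of the matrix arm of complex I whose loss causes Leigh syndrome in people and an encephalopathy in mice. Its level went from 4.24, 4.32 and 4.34 at 10 months to 3.95, 3.98 and 3.98 at 17 months, a fall of 0.33 ± 0.058 on the log2 scale (1.26-fold lower, adjusted p = 0.0124). In the other age comparisons its groups did not overlap either. In WT cortex the levels were 4.19, 4.17 and 4.26 and then 4.07, 4.04 and 3.96. In Tg2576 cortex they were 4.13, 4.19 and 4.14 and then 4.03, 4.001 and 4.02, and in Tg2576 whole brain 4.31, 4.26 and 4.25 and then 3.93, 4.10 and 4.10. None of these 3 differences was called.

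Next came Ndufb2 (-0.28 ± 0.080, adjusted p = 0.0442) and Ndufb11 (-0.275 ± 0.077, adjusted p = 0.0443), both accessory subunits of the membrane arm of complex I. Uqcrh, the hinge protein of complex III, fell from 6.80, 6.96 and 6.82 to 6.56, 6.56 and 6.63, a difference of -0.28 ± 0.069 (adjusted p = 0.0321). Atp5j2, the f subunit of complex V, differed by -0.275 ± 0.080 (adjusted p = 0.0494). The other called falls were between 0.21 and 0.28 in size: Ndufa13, Ndufb5 and Ndufv2 of complex I, Cox7a2 of complex IV, and Atp5c1, Atp5l and Atp5pb of complex V. Ndufv2, an iron-sulfur subunit next to the NADH site, was the only core subunit among the genes called lower.

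Atp5pb, the b subunit of the stalk that holds the catalytic head of complex V in place, was the only gene called lower in both genotypes. In WT whole brain its level was 4.54, 4.52 and 4.51 at 10 months and 4.34, 4.33 and 4.27 at 17 months, a fall of 0.21 ± 0.057 (adjusted p = 0.0391). In Tg2576 whole brain it was 4.49, 4.61 and 4.63 and then 4.21, 4.24 and 4.25, a fall of 0.35 ± 0.076 (1.27-fold lower, adjusted p = 0.0386). The groups did not overlap in either genotype. Leaving out any 1 array lost the WT call (adjusted p from 0.0614 to 0.107) and lost the Tg2576 call in 5 of 6 cases (0.0639 to 0.12), the exception being 10 months replicate 1, the array on slide 2 (-0.39, adjusted p = 0.05, just under the threshold). In cortex the levels were 4.45, 4.575 and 4.45 at 10 months and 4.39, 4.305 and 4.265 at 17 months in WT, and 4.596, 4.56 and 4.53 and then 4.41, 4.34 and 4.36 in Tg2576, neither of which was called in the 75th percentile scale.

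In Tg2576 whole brain 3 members were called higher, where 6.58% of all probes were, and 1 lower, where 5.55% of all probes were. Besides Ndufa4l2 and Atp5pb the called genes were Cox4i1 and Ndufv1. Cox4i1, the form of subunit 4 that most cells use, rose from 7.28, 7.37 and 7.52 to 7.74, 7.77 and 7.74, by 0.36 ± 0.087 (adjusted p = 0.0473). Ndufv1 rose from 5.90, 5.90 and 5.87 to 6.18, 6.23 and 6.30, by 0.34 ± 0.073 (adjusted p = 0.0365). The median of all members was 0, with 41 positive and 41 negative. Quantile normalization gave a median of -0.10 and 1 call higher and 7 lower, of which Ndufa4l2 and Atp5pb were shared. With the slide in the model Ndufa4l2 alone was called, and within slide 3 Ndufa4l2 and Atp5pb were. Leaving out 1 array at a time left 0 to 2 calls.

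A list of 19 subunits was fixed as core or catalytic. Its complex IV members, Cox4i1, Cox5a and Cox5b, are nuclear-encoded subunits outside the catalytic core of that complex. The age calls in this list were 1 higher in Tg2576 cortex (Uqcrc1), 2 higher in Tg2576 whole brain (Cox4i1 and Ndufv1), 1 higher and 1 lower in WT whole brain (Sdhc and Ndufv2) and none in WT cortex. These counts are to be read beside the shares of all probes given above. Their age differences are given here in the order WT cortex, Tg2576 cortex, WT whole brain and Tg2576 whole brain. Ndufs1, the largest iron-sulfur subunit of complex I, differed by -0.04, -0.005, -0.16 and -0.26. Sdha, the flavoprotein of complex II, differed by 0.13, 0.15, 0.02 and 0.08. Cox5a, a nuclear-encoded subunit that sits against the catalytic core of complex IV, differed by 0.14, 0.23, 0.17 and 0.23. Atp5b, the catalytic beta subunit of complex V, differed by 0.15, 0.14, -0.14 and 0.19, and Atp5a1, its alpha partner, by 0.15, 0.11, -0.06 and 0.14. None of these differences was called.

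The paralog pairs did not share a pattern. Over all 14 comparisons (12 between pairs of groups and 2 interactions) Ndufa4l2 was called 3 times and Ndufa4 never, with a range of -0.32 to 0.29 for Ndufa4. Cox4i1 ranged from -0.25 to 0.36 with 1 call, and Cox4i2, the lung-enriched form, from -0.16 to 0.16 with none. Cox6a1 ranged from -0.10 to 0.27 and its muscle form Cox6a2 from -0.20 to 0.40, with no call. Cox6b1 ranged from -0.22 to 0.12 with no call and Cox6b2 from -0.51 to 0.24 with 1. Cox7a1, the muscle form, ranged from -0.49 to 0.18 with no call, and Cox7a2 from -0.265 to 0.18 with 1. Cox7b ranged from -0.20 to 0.07 with no call and Cox7b2 from -0.39 to 0.36 with 1. Cox8a ranged from -0.19 to 0.27 and Cox8b, the muscle and heart form, from -0.40 to 0.69, with no call for either. The wide range of Cox8b stood beside replicate arrays that spread by up to 0.966 within a group.

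The second question was whether the subunit genes differed between Tg2576 and WT mice of the same age and tissue. No member was called in any of the 4 comparisons by limma or by the methods' t-test, and of all probes 0% were called as well. At an unadjusted p under 0.05, 2 members passed in cortex at 10 months (9.95% of all probes did), 0 in cortex at 17 months (9.32%), 2 in whole brain at 10 months (11.4%) and 8 in whole brain at 17 months (13%). In cortex at 10 months these were Ndufs5, an accessory subunit of complex I, at 5.70 in WT and 5.88 in Tg2576 (0.18 ± 0.068, adjusted p = 0.483), and Ndufa4 (-0.22 ± 0.077, adjusted p = 0.465). In whole brain at 10 months they were Ndufb6 (0.18 ± 0.070) and Atp5b (-0.18 ± 0.069), both at an adjusted p of 0.438. In whole brain at 17 months all 8 had higher means in Tg2576, with the largest differences for Ndufv3 (0.24 ± 0.085, adjusted p = 0.364), Atp5k (0.22 ± 0.077, 0.362) and Cox6a1 (0.21 ± 0.080, 0.373).

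The members leaned to one side at 17 months without a call. In cortex at 17 months the median difference was 0.09, with 78 of 82 positive, against 0.01 for all probes. The positive genes were 31 of 35 in complex I, 4 of 4 in complex II, 8 of 8 in complex III, 19 of 19 in complex IV and 16 of 16 in complex V, while the median SE of a single gene was 0.079. In whole brain at 17 months the median was 0.10 with 65 of 82 positive, against 0.01 for all probes, and after quantile normalization it turned to -0.02 with 35 positive. In cortex at 17 months quantile normalization gave 0.05 with 70 positive, and the slide as a term gave 0.06. At 10 months the medians were 0.03 in cortex (57 positive) and -0.004 in whole brain (39 positive). The genes on an array are not independent, so these counts are descriptions.

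Ribosomal protein genes, measured the same way, leaned in the same direction at 17 months. Their median was 0.08 in cortex, with 71 of 82 positive, and 0.16 in whole brain, with 75 positive. Of all probes, 52.0% were positive in cortex and 52.8% in whole brain. In whole brain 24 of these genes were higher at an unadjusted p under 0.05, as were 2644 of all 36978 probes, and none was called. In whole brain at 17 months 5 of 7 cerebellum markers were lower in Tg2576 at an unadjusted p under 0.05, with a list median of -0.83. Of all 36978 probes, 2159 were lower at that threshold. In cortex at 10 months all 7 olfactory bulb markers were higher in Tg2576 at an unadjusted p under 0.05, with a median of 2.17. Of all 39628 probes, 1901 were higher there. The part of either marker list in the subunit genes' values was not tested.

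For Ndufa4l2 the genotype difference in cortex at 17 months was 0.75 ± 0.408 (adjusted p = 0.597), and 0.25 without WT cortex 17 months replicate 3. With slide as a term it was 1.75 ± 0.121 (adjusted p = 0.0262), the only genotype call of a member under any setting. That fit compares the Tg2576 arrays with WT replicate 3 alone, and within slide 2 the adjusted p was 0.102. In whole brain at 10 months it was 1.01 ± 0.653 (adjusted p = 0.55), and 0.20 without WT whole brain 10 months replicate 1.

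The difference of the age effect between genotypes was tested as an interaction. No member and 0% of all probes were called in either tissue. In cortex 5 members passed an unadjusted p under 0.05 (9.41% of all probes did), all positive, which means a more positive age difference in Tg2576: Ndufa4 (0.29 ± 0.099), Ndufa2 (0.29 ± 0.112), Cox8a (0.27 ± 0.098), Ndufb7 and Ndufa5, at adjusted p from 0.49 to 0.529. In whole brain 8 passed (16.8% of all probes did), led by Atp5b (0.33 ± 0.098) and Ndufb6 (-0.27 ± 0.079), both at an adjusted p of 0.19. The members' medians were 0.06 in cortex (66 positive) and 0.115 in whole brain (61 positive), against 0 and 0.02 for all probes, and 0.025 and 0.02 with quantile normalization. The age calls present in one genotype and not in the other are therefore not shown to differ between genotypes.

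The third comparison was cortex against whole brain in mice of the same genotype and age. Most members had lower means in cortex, with 51 of 82 negative in all 4 comparisons and 2 positive in all 4, and few were called. Of all probes, 50.1% to 52.4% were positive in a single comparison, and no share over all 4 is given here. The medians, cortex minus whole brain, were -0.15 in WT at 10 months (9 positive), -0.08 in WT at 17 months (17 positive), -0.15 in Tg2576 at 10 months (14 positive) and -0.10 in Tg2576 at 17 months (18 positive), against 0 to 0.02 for all probes. With quantile normalization they were -0.06, -0.04, -0.06 and 0.015, so the shift was smaller under that scaling and at 17 months in Tg2576 its direction turned. The ribosomal protein genes had medians of -0.18, -0.10, -0.16 and -0.18 in the same order.

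At 10 months no member was called in WT, where 0.0101% of all probes were, or in Tg2576, where 0% were, and the methods' t-test called none in either. At an unadjusted p under 0.05, 33 members were lower and 1 higher in WT cortex at 10 months (11.8% of all probes were lower), and 21 lower and 1 higher in Tg2576 cortex (9.92% were lower). In WT the largest of these were Ndufa10 (0.34 ± 0.065, adjusted p = 0.079), which was higher in cortex, and Atp5o, the stalk subunit OSCP (-0.34 ± 0.065, adjusted p = 0.079), Atp5j2 (-0.33, adjusted p = 0.0914) and Ndufs8, an iron-sulfur core subunit (-0.33, adjusted p = 0.076). In Tg2576 the largest negative ones among those that passed were Ndufa2 (-0.34 ± 0.070, adjusted p = 0.0978), Sdhd, the other membrane anchor of complex II (-0.30, adjusted p = 0.107), and Ndufa4 (-0.29, adjusted p = 0.198).

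At 17 months 1 member was called in each genotype. In WT, where 10.3% of all probes were called, Cox6b2 was lower in cortex at -0.51, -0.25 and -0.61 than in whole brain at -0.01, -0.02 and 0.21. The difference was -0.51 ± 0.121 with an adjusted p of 0.05, just under the threshold, and it was 0.0965 with slide as a random block and 0.0438 to 0.137 with 1 array left out, the call being kept only without WT cortex replicate 2. At an unadjusted p under 0.05, 15 members were lower (13.7% of all probes were), and 1 was higher. With quantile normalization 2 were called higher and 1 lower. In Tg2576 1 of 82 members was called, where 1.97% of all probes were, and none with any 1 array left out. At that age 8 members were lower in Tg2576 cortex at an unadjusted p under 0.05, where 7.88% of all probes were.

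**Figure D5:**
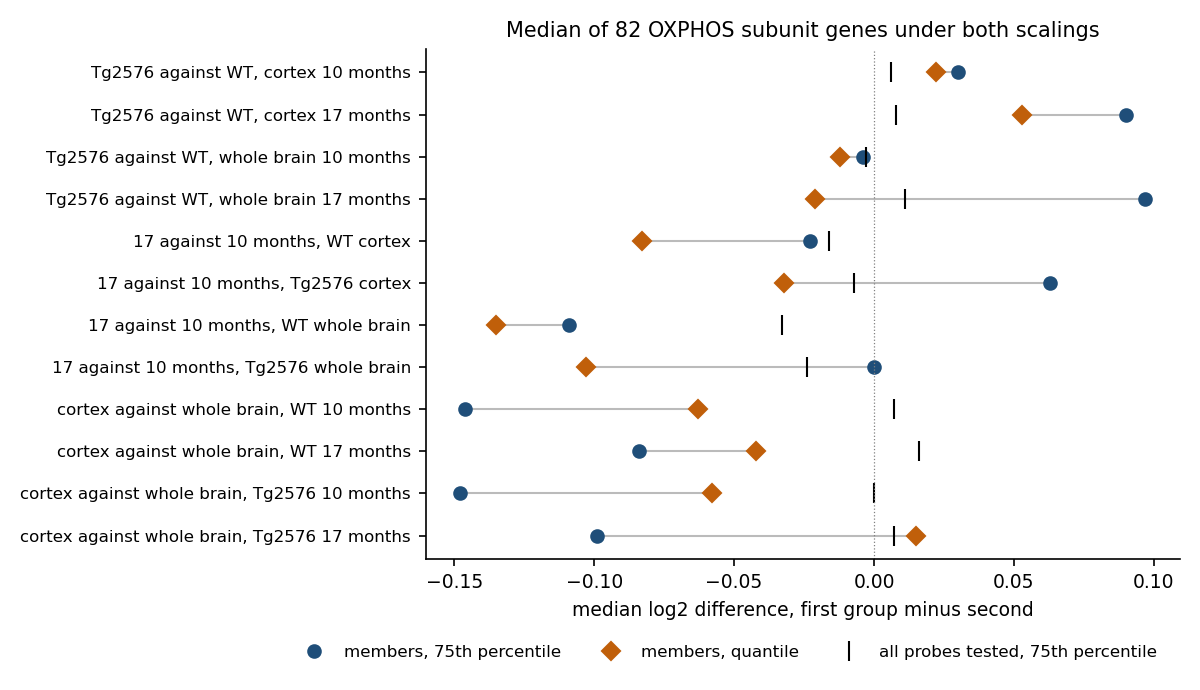
Median difference of the 82 subunit genes in the 12 comparisons of pairs of groups (x axis, log2 units; one row per comparison), with the 75th percentile and with quantile normalization; the tick gives the median of all probes under the 75th percentile. The medians stay between -0.15 and 0.10, and quantile normalization moves the tissue medians toward 0 and the age medians down.

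Lists of genes that work with the subunits were described in the same fits, and the age comparisons are given in the order WT cortex, Tg2576 cortex, WT whole brain and Tg2576 whole brain. Of all probes, 2.94%, 5.6%, 12.7% and 6.58% were called higher and 1.62%, 4.69%, 15.2% and 5.55% lower, and the counts of these short lists are to be read beside those shares. Of 41 to 42 assembly and copper delivery factors, 1, 2, 4 and 0 were called higher and 0, 0, 9 and 3 lower, with medians of -0.001, 0.05, -0.06 and -0.09. Timmdc1 (-0.50), Ndufaf1 (-0.32) and Nubpl (-0.32), which build complex I, fell in WT whole brain, while Cox18 (0.49), which inserts a complex IV subunit, rose. None of 7 cytochrome c and electron donor genes and none of 9 ATP and phosphate exchange genes was called in any age comparison.

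Of 13 citric acid cycle genes, 0, 1, 3 and 2 were called higher and 0, 0, 1 and 2 lower. Ogdh, a subunit of the oxoglutarate dehydrogenase complex, rose in Tg2576 cortex (0.65), WT whole brain (0.59) and Tg2576 whole brain (0.68), and Cs, citrate synthase, rose in WT whole brain (0.32), where Fh1, fumarase, fell (-0.29). Of 16 glycolysis genes, 1, 0, 3 and 3 were called higher and 2 lower, these in WT whole brain. Hk1, the main brain hexokinase, rose in WT cortex (0.48), WT whole brain (0.66) and Tg2576 whole brain (0.73).

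Of 12 regulators of respiratory gene transcription, 2, 4, 3 and 3 were called higher, and 2 lower in Tg2576 whole brain, with medians of 0.06, 0.04, 0.07 and 0.01. Ppargc1b, a coactivator of mitochondrial genes, rose in all 4 age comparisons, by 0.63 (adjusted p = 0.0304), 0.70 (0.022), 0.81 (0.00877) and 0.66 (0.018). Polrmt, the mitochondrial RNA polymerase, rose in all 4 as well, by 0.49, 0.41, 0.49 and 0.485. The subunit genes, as given above, had medians of -0.02, 0.06, -0.11 and 0 in the same comparisons. Gabpa, the ETS factor that binds the motif searched above, fell in Tg2576 whole brain (-0.42), as did Tfb2m (-0.31), a mitochondrial transcription factor.

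In WT whole brain, where 12.7% of all probes were called higher and 15.2% lower, 1 of 82 ribosomal protein genes was called higher and 21 lower by age, with a median of -0.16. Of 38 proteasome genes 4 were higher and 3 lower there, which is no more than the share of all probes. Of 8 neuron markers, 2, 4, 4 and 2 were called higher by age and none lower. Their summed level was 362 to 419 in WT whole brain at 10 months and 475 to 495 at 17 months. In Tg2576 whole brain it was 386 to 461 and then 511 to 543. In Tg2576 cortex it was 385 to 410 and then 430 to 474, while the WT cortex ranges overlapped (406 to 427 and then 383 to 478). Of 7 oligodendrocyte markers, 0, 1, 2 and 2 were called higher and none lower. Their summed level went from 175 to 200.4 up to 222 to 227 in WT whole brain. In Tg2576 cortex it went from 159 to 171 up to 177 to 234. The ranges overlapped in WT cortex (174 to 183 and then 164 to 179). They also overlapped in Tg2576 whole brain (173 to 195 and then 175 to 205). Of 6 astrocyte markers, 0, 1, 1 and 1 were called higher and none lower, with a summed level of 63.0 to 69.9 and then 76.0 to 76.9 in Tg2576 cortex. Elsewhere the ranges overlapped, with 65.5 to 69.8 and then 65.5 to 70.8 in WT cortex. In WT whole brain they were 72.5 to 85.9 and then 77.4 to 92.7. In Tg2576 whole brain they were 68.1 to 77.1 and then 76.1 to 92.0. The part of these cell types in the age differences of the subunit genes was not tested, nor was binding of the probes to RNA of pseudogenes or paralogs of the members.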

How the data were processed

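Total RNA extracted with a mirVana PARIS kit was labelled with a Low Input Quick Amp kit and hybridised to single-colour Agilent mouse expression arrays. Per the file headers, Feature Extraction 10.7.3.1 gave the deposited intensity of each spot, background-subtracted within the array. A log2 version of the same arrays, deposited by the authors, served as an alternative. Here log2 intensity was taken minus each array's 75th percentile. Control and outlier spots were left out and spots of 1 probe were averaged. A probe was tested where 2 or more arrays of either group had it well above background.

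Probes were named through their RefSeq transcript. One probe per gene, the brightest over 24 arrays, stood for the gene. The 12 comparisons of pairs of groups were each fitted on their own 6 arrays, and the 2 interactions on 12 arrays, with limma 3.58.1 (R 4.3.3, with version 1.17.8 of data.table), with Benjamini-Hochberg adjustment over all probes tested. A member was called at an adjusted p under 0.05. Results were tabulated with Python 3.11.15 and pandas 2.3.3. The fit was tested on simulated data.

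The members and lists were chosen with earlier results of these data known. Named with values were the called members with the 5 largest rises and falls of a comparison (with no call, the 3 largest at an unadjusted p under 0.05 without overlap), paralog pairs, core subunits, members with the widest and narrowest spread, and genes whose probes opposed each other, of which there were 0. Further genes were named after their values were seen. The alternatives were quantile normalization, normexp background correction, no filter on dim probes, the authors' log2 values, a replicate block, slide as a term or within a slide, 1 fit over 24 arrays, a mean over a gene's probes, the t-test of the methods, and each array left out in turn. Precision is limited by the number of arrays. One member is counted in the totals but not reported here by name. The miRNA arrays were not used.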

Additional observations from a re-analysis of the deposited data

How the results depend on the processing

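Directions held more often than calls. For single genes under the alternatives, 173 values kept their side of the threshold, 186 lost the call and 0 reversed, and 205 of the members' medians moved by less than the spread between replicates while 13 moved by more. No genotype or interaction count left 0 except for 1 call with slide as a term in cortex at 17 months. For age in WT cortex, with 0 calls, quantile normalization gave 1, normexp 1, the t-test 2, 1 fit over all 24 arrays 7 and a mean over a gene's probes 2. For age in Tg2576 cortex, with 2 calls, normexp gave 7, no filter on dim probes 0, the t-test 1 and the fit over all arrays 15. For age in WT whole brain, with 17 calls, quantile normalization gave 31, normexp 28, no filter 2, the fit over all arrays 35 and the mean over probes 27. For age in Tg2576 whole brain, with 4 calls, quantile normalization gave 8, normexp 8, slide as a term 1, slide 3 alone 2, the fit over all arrays 22 and the mean over probes 11. For tissue, normexp gave 12 in WT at 10 months, 2 in Tg2576 at 10 months and 4 in Tg2576 at 17 months, and the fit over all arrays gave 19, 15 and 8. For tissue in WT at 17 months, with 1 call, quantile normalization and the mean over probes gave 3 each, no filter, the authors' values and slide as a random block 0 each, and the fit over all arrays 13. The fit over all arrays has more samples behind its spread. The cause of the other differences was not tested. Without a filter the calls in Tg2576 whole brain by age went the other way, to 5. The added gene was Cox8c, which was well above background on 0 arrays. The slide alternatives within 1 slide were chosen after seeing the data.

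With 1 array left out, the calls ran from 0 to 1 for age in Tg2576 cortex, 2 to 10 in WT whole brain, 0 to 2 in Tg2576 whole brain, 0 to 1 for tissue in WT at 17 months and 0 to 0 for tissue in Tg2576 at 17 months and for every other comparison.

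With the replicate number as a block the calls were 0 for age in WT cortex, 0 in Tg2576 cortex, 1 in WT whole brain and 0 in Tg2576 whole brain, and 0 for every tissue, genotype and interaction comparison. Nothing says whether same-numbered arrays belong together. Correlations of their deviations ran from -0.157 to 0.224, and in no comparison were all 3 above 0.1. Such correlations cannot decide whether the samples were paired. Fits with 6 arrays and few residual degrees of freedom limit what can be called, and so does signal over background for dim probes.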
